A study of Mus musculus with 29 samples.

Results

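The genes of glucose breakdown and of the response to low oxygen were followed in C2C12 cells, a mouse line of muscle precursor cells that divide in rich medium and fuse into myotubes when they differentiate. The set was a named list of 39 genes, of which 37 could be measured among 19938 genes in all. For each gene the probe set that carried its symbol alone and had the highest mean over the 27 transfected arrays was used. The set held 18 measured genes of glucose uptake and glycolysis, 6 genes that decide the fate of pyruvate and lactate, 4 genes of oxygen sensing and 9 other genes that low oxygen is known to raise. Gpi1 and Eno1 were not analysed here. Of the 37 genes only Adm lay among the 40% of genes with the lowest mean, so no filter on dim genes removed any other member.

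The cells were at passage 27. A mimic, a synthetic copy of a mature microRNA, was transfected at 50 nM, and RNA was taken after 36 h. Each of 7 mimics had 3 arrays. They were Let-7b, miR-1, miR-145, miR-22, miR-29a, miR-34a and miR-365. A control received the AllStar negative control oligonucleotide in the same way. The control had 3 arrays and a technical repeat of each, which were averaged to 3 control values. Terminally differentiated cells, called myotubes here, and untransfected proliferating myoblasts at 70% confluence had 1 array each. All groups are wild-type cells of this 1 line grown in culture, and the 3 values of a group come from 3 independent experiments by the series' description. The number of arrays limits the precision. All values are log2 expression on Affymetrix Mouse Gene 1.0 ST arrays, so a difference of 1 is a doubling. Levels were not compared between genes, since each gene has its own probes.

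Glycolysis splits glucose into pyruvate, which is either turned into lactate and exported or taken into mitochondria and oxidised. Hypoxia-inducible factor (HIF) raises most of these genes when oxygen is short, along with genes for blood vessel growth and for the removal of mitochondria. In the presence of oxygen, prolyl hydroxylases such as Egln1 and Egln3 mark its alpha subunit for destruction, and the asparaginyl hydroxylase Hif1an blocks its transcriptional activity. Differentiated muscle uses its own isoforms of several glycolytic enzymes, among them Pfkm, Pgam2 and Eno3.

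A microRNA acts on messages that pair with bases 2 to 8 of its sequence, the seed. The mature sequences below are shown because they are what tells the mimics apart. They are those of RefSeq on GRCm38.p6, with the seed in capitals, and each is the arm that is usually the abundant one, since the labels name no arm. The 5 seeds all differ. The mature sequences of miR-1 and miR-145 were not used here.
miR-34a-5p: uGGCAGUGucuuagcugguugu
miR-22-3p: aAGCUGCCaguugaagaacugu
miR-365-3p: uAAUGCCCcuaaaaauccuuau
miR-29a-3p: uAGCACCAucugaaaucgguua
Let-7b-5p: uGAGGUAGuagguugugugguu

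The promoters of 3 members are shown as examples chosen by hand. They belong to Bnip3 and Slc16a3, genes that low oxygen raises, and to Pgam2, a muscle isoform. No change below was tested against a motif in these promoters. Each runs 5′ to 3′ on the gene's strand over 300 bases, from 250 before to 50 after the start that RefSeq gives on GRCm38.p6. Bnip3 lies at chr7:138909457-138909756 on the minus strand, Slc16a3 at chr11:120948817-120949116 on the plus strand and Pgam2 at chr11:5803747-5804046 on the minus strand. Capitals mark ACGTG, a form of the core letters bound by HIF, in Bnip3 and Slc16a3. In Bnip3 the motif was found on both strands, 108 and 107 bases before the start, overlapping as CACGTG. In Slc16a3 it stands 27 and 14 bases before the start. The sister form GCGTG is left in lower case, with 3 positions in the Bnip3 window and 0 in that of Slc16a3. In Pgam2 the capitals mark CAGCTG, letters that myogenic factors such as Myod1 can bind, 125 bases before the start, and CTATTTTTA, a form of the site of the muscle factor Mef2, 80 bases before it.
Bnip3: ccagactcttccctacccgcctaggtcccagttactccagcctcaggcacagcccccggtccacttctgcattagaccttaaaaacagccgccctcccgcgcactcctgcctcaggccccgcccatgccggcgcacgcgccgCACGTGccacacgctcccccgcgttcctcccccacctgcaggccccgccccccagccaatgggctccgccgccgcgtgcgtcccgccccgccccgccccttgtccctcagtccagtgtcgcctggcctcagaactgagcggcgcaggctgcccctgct
Slc16a3: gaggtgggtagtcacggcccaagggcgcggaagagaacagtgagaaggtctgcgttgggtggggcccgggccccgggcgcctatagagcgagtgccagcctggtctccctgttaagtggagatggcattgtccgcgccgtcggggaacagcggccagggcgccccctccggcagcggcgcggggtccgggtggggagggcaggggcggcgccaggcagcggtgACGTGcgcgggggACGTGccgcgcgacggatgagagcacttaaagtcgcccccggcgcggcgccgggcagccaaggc
Pgam2: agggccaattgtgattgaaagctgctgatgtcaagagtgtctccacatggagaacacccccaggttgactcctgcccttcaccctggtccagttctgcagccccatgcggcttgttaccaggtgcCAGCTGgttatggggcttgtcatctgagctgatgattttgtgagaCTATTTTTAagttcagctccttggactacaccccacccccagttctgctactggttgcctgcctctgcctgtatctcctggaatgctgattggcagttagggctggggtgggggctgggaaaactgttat

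At least 1 window was at hand for 35 of the 37 genes. A gene with several starts had several windows and was counted once if any of them held the motif. Searched on both strands, ACGTG occurred in 23 of 35 genes (65.7%), against 24.4% of all 15614 measured genes with a window. The sister form GCGTG occurred in 24 of 35 (68.6%), against 44.4%. CAGCTG occurred in 7 of 35 (20%), against 18.4%, and CTATTTTTA in 1 of 35 (2.86%), which is Pgam2, against 0.474%. ACGTG was found for 11 of 18 glycolytic genes (61.1%) and for 5 of 7 other hypoxia genes with a window (71.4%). Base composition and the number of windows per gene were not matched, and a match of letters is a description and not a binding site.

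Before the comparisons, 2 features of the series bear on them. The untransfected myoblast stood apart from the control-transfected cells. The mean of 7 myotube markers (Myog, Myh3, Ckm, Acta1, Tnnt3, Mymk and Ryr1) was 12.92 in the myotube array, 12.17 in the myoblast array and between 10.41 and 10.67 in the 3 control values. All 7 of 7 markers lay lower in every control value than in the myoblast array, which is labelled as proliferating. The mean of 5 proliferation markers (Mki67, Top2a, Cdk1, Mcm5 and Pcna) was 11.60 in the myoblast array and 10.51 in the myotube array. In the control values it was 12.04 to 12.08, and all 5 of 5 lay higher in every control value than in the myoblast array. The second feature is that mimics moved these markers too, and the values are given beside the gene groups below. The 11 measured markers of adipocytes, macrophages, endothelium and osteoblasts had values between 4.83 and 7.49 in all groups, where probe sets without a listed gene had a median of 6.68. In such bulk samples, fewer cells of a type and less RNA per cell cannot be told apart.

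Over the 7 mimics, 34 of 37 members passed in at least 1 comparison with the control, against 45.1% of all genes. A gene passed when the Benjamini-Hochberg adjusted p of limma, taken over all 19938 genes, was below 0.05. The members were chosen with earlier results of these data known, and 36 of the 37 lie outside the dimmest 40% of genes. The shares of all genes here and below are therefore not matched to the members in choice or in level. There were 79 calls in 259 pairs of a member and a mimic, 47 higher and 32 lower. Members called in either direction numbered 18 under miR-1 (against 23.7% of all genes), 15 under miR-34a (11.7%), 10 under miR-22 (14.5%) and 16 under miR-365 (20%). They numbered 2 under miR-29a (10.3%), 10 under miR-145 (6.85%) and 8 under Let-7b (10.9%). Pfkp, Tpi1 and Hif1a passed under none in this limma model, which has no term for the replicate number. The 7 comparisons share the 3 control values, so they are not independent of each other. Of the 79 calls, 49 held when any 1 of the 6 values in the comparison was left out, and 0 changed direction. The map of changes gives all 259 differences.

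**Figure D1:**
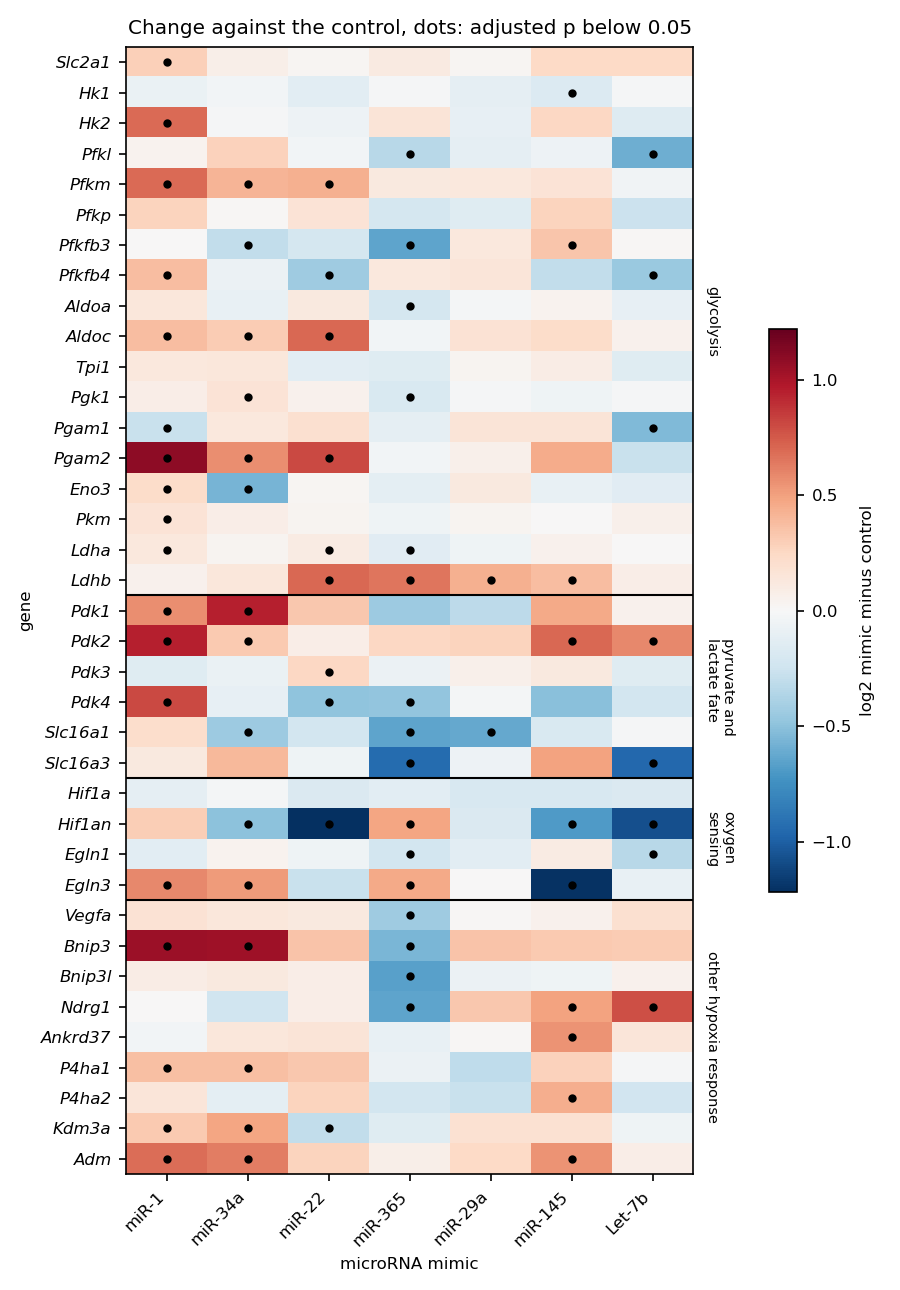
Log2 difference between mimic and control for the 37 members (rows, grouped by role) under the 7 mimics (columns). Red is higher and blue lower than the control, and a dot marks an adjusted p below 0.05. The miR-1 column is mostly red and the miR-365 column mostly blue, while Hif1an and Egln3 carry the darkest blue cells.

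Under miR-1, a muscle microRNA, 17 members rose, against 13.2% of all genes, and 1 fell, against 10.5%. The rises were spread over the roles. In glycolysis 9 of 18 rose and Pgam1 fell, and among the 19 other members 8 rose. The median difference over the 37 members was 0.18, where that of all genes was 0.00. Of the 7 myotube markers 6 rose and the 5 of 5 proliferation markers fell, with means of 10.84 to 11.33 under miR-1, against 12.04 to 12.08 in the control, and their part in the result was not tested. The call ended for 8 of the 18 members when 1 library was left out (Slc2a1, Pfkfb4, Pgam1, Eno3, Pdk1, Egln3, P4ha1 and Kdm3a), with adjusted p up to 0.3361. Without miR-1 replicate 3 the calls came to 11, all higher, 7 of them in glycolysis and 4 among the other members.

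Under miR-34a, which p53 is known to induce, 11 members rose, against 5.62% of all genes, and 4 fell, against 6.06%. In glycolysis 4 of 18 rose and 2 fell, and among the 19 others 7 rose and 2 fell. The median difference was 0.12, against 0.02 over all genes. Of the myotube markers 4 of 7 rose and of the proliferation markers 3 of 5 fell, and their part was not tested. With each array centred on its median, 6 members rose and 4 fell. Leaving out single libraries ended 8 of the 15 calls (Pfkfb3, Aldoc, Pgk1, Pgam2, Pdk2, Egln3, P4ha1 and Adm), with adjusted p up to 0.2631. The calls came to 9 without miR-34a replicate 2, 9 without miR-34a replicate 3, 9 without control replicate 2 and 8 without control replicate 3. In glycolysis 2 members rose when any 1 library other than miR-34a replicate 1 was left out, and among the others 3 or 4 rose without any 1 of the libraries except control replicate 1.

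Under miR-22, 6 members rose, against 8.82% of all genes, and 4 fell, against 5.67%. The rises were in glycolysis, where 5 of 18 rose and 1 fell. Among the 19 others 1 rose and 3 fell, and the difference between these splits was not tested. The median difference was 0.08, against -0.01 over all genes. Of the myotube markers 4 of 7 rose and of the proliferation markers 3 of 5 fell, and their part was not tested. With the replicate number as a block, 10 rose and 6 fell, where 2447 and 1571 of all genes did. With arrays centred on their median 4 rose and 5 fell, where 1197 and 1521 of all genes did. Leaving out single libraries ended the calls of Pfkfb4, Ldha, Pdk4 and Kdm3a (adjusted p up to 0.2797), and the calls came to 6 without miR-22 replicate 3, without control replicate 1 or without control replicate 3, with 1 fall in each case.

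Under miR-365 the direction was the other way. Here 13 members fell, against 8.33% of all genes, and 3 rose, against 11.7%. In glycolysis 5 of 18 fell and Ldhb rose. Among the 19 others 8 fell, 4 of them among the 9 other hypoxia genes, while Hif1an and Egln3 rose. The median difference was -0.13, against 0.00 over all genes. Of the 5 proliferation markers 4 fell, and of the 7 myotube markers 0 passed, with 2 at an unadjusted p below 0.05 in limma. Over all genes 5627 of 19938 had such a p under miR-365. The part of the proliferation markers in the result was not tested. Leaving out single libraries ended the calls of Pfkl, Aldoa, Pgk1, Pdk4 and Egln3 (adjusted p up to 0.1984). The falls in glycolysis came to 3 without miR-365 replicate 1, 3 without miR-365 replicate 3, 2 without control replicate 2 and 2 without control replicate 3.

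Under miR-145, 7 members rose, against 3.85% of all genes, and 3 fell, against 3%. Of the rises 4 were among the 9 other hypoxia genes, and both Hif1an and Egln3 fell. With arrays centred on their median the split was 4 higher and 4 lower. Leaving out single libraries ended the calls of Hk1, Pfkfb3, Ndrg1 and Adm (adjusted p up to 0.2297), and the calls came to 6 without miR-145 replicate 3 or without control replicate 3, with 2 of the 9 other hypoxia genes higher in each case. Of the 7 myotube markers 1 rose and of the 5 proliferation markers 1 fell.

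Under Let-7b 6 members fell and 2 rose, each against 5.46% of all genes. In glycolysis 3 of 18 fell and 0 rose, with 6 of the 18 at an unadjusted p below 0.05 in limma. Over all genes 4070 of 19938 had such a p under Let-7b. Of the myotube markers 1 of 7 fell, and their mean was 9.60 to 10.35 under Let-7b, against 10.41 to 10.67 in the control. The part of this shift was not tested. The call of Pfkfb4 was lost in 4 of the 6 leave-one-out fits (highest adjusted p 0.1541). Under miR-29a 1 member rose (Ldhb), against 5.54% of all genes, and 1 fell (Slc16a1), against 4.78%. Of the 7 myotube markers 1 rose under miR-29a (Myh3, by 0.76 ± 0.19, adjusted p = 0.0124). Of the 5 proliferation markers 0 passed, with 0 at an unadjusted p below 0.05 in limma. Over all genes 3976 of 19938 had such a p under miR-29a. The osteoblast marker Sp7 rose by 0.43 ± 0.09 (adjusted p = 0.0025), to a mean of 6.98 under miR-29a, against 6.55 in the control. The other measured osteoblast marker, Ibsp, went the other way, at -0.27 ± 0.09 (adjusted p = 0.0678), with a mean of 4.85 under miR-29a. Probe sets without a listed gene had a median of 6.68, so both markers are dim. The part of these markers was not tested. With the replicate number as a block, 4 rose and 4 fell under miR-29a, and with arrays centred on their median 1 rose and 2 fell.

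**Figure D2:**
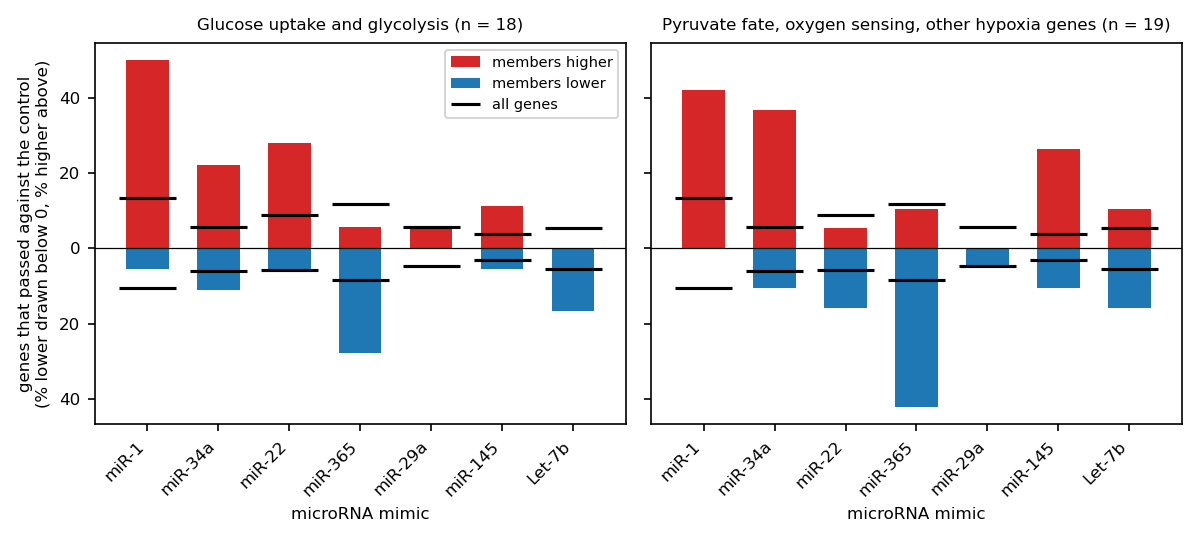
Share of members that passed against the control (%), higher above 0 and lower below 0, under each mimic. The left panel holds the 18 glycolysis members and the right panel the 19 others, and black lines give the same share over all genes. The red bars of miR-1 (50% and 42.1%) and the blue bars of miR-365 (27.8% and 42.1%) lie past the lines in both panels.

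Each mimic was also set against the mean of the other 6, a comparison that uses no control array. In either direction the background of this comparison was 28.7% of all genes for miR-1, 14.1% for miR-34a, 15.8% for miR-22, 27% for miR-365, 17.1% for miR-29a, 18.8% for miR-145 and 18.5% for Let-7b. Under miR-1, 21 members were higher than under the other 6, against 15% of all genes, and 4 were lower, against 13.7%. Under miR-365, 24 were lower, against 11.3%, and 3 higher, against 15.8%. All 9 of 9 other hypoxia genes were lower under miR-365 than under the other mimics, from -0.24 for P4ha1 (adjusted p = 0.0435) to -1.13 for Bnip3 (adjusted p = 5.5e-09) on the log2 scale. Under Let-7b 14 were lower, against 10.3%, and 4 higher, against 8.19%. In the same comparison all 7 of 7 myotube markers were lower and 4 of 5 proliferation markers higher under Let-7b, and their part was not tested. Under miR-145 and miR-34a 10 each were higher, against 10.3% and 5.9%, and 4 each lower, against 8.59% and 8.18%. Under miR-22 9 were higher, against 9.45%, and 5 lower, against 6.33%. Under miR-29a 3 were higher, against 8.8%, and 6 lower, against 8.26%.

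In glycolysis the muscle isoforms Pgam2 and Pfkm rose under the same 3 mimics, miR-1, miR-34a and miR-22. Pgam2, the muscle form of phosphoglycerate mutase, had values of 8.93, 9.16 and 9.42 under miR-1 and of 9.07, 8.74 and 8.89 under miR-22, against 8.31, 7.95 and 8.0 in the control. All 6 of these mimic values lay above all 3 control values. The difference was 1.09 ± 0.14 (SE) under miR-1 (2.12-fold, adjusted p = 4.4e-06) and 0.81 ± 0.14 under miR-22 (adjusted p = 3.5e-04). Under miR-34a it was 0.57 ± 0.14 (adjusted p = 0.0092), and this call ended without miR-34a replicate 1 (adjusted p = 0.0653) or control replicate 2 (adjusted p = 0.0567). The levels under all mimics stayed below the untransfected myoblast at 9.90 and the myotube at 11.44.

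Pfkm, the muscle form of phosphofructokinase, which commits glucose to glycolysis, followed the same 3 mimics. It had 10.20, 10.42 and 10.63 under miR-1, against 9.84, 9.65 and 9.67 in the control. The groups did not overlap. It rose by 0.69 ± 0.10 under miR-1 (adjusted p = 1.2e-05), 0.43 ± 0.10 under miR-22 (adjusted p = 0.0038) and 0.41 ± 0.10 under miR-34a (adjusted p = 0.0068). The liver form Pfkl went down instead under Let-7b, with 9.85, 10.03 and 10.03, against 10.49, 10.58 and 10.63 in the control. All 3 Let-7b values were lower than any control value, a fall of 0.60 ± 0.10 (adjusted p = 3.7e-04). The platelet form Pfkp passed under no mimic in the model without a replicate block. Its differences ran from -0.26 under Let-7b to 0.27 under miR-1, with a lowest adjusted p of 0.0518.

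Hexokinase 2, encoded by Hk2, traps glucose in the cell. It had 10.02, 10.15 and 10.68 under miR-1, against 9.60, 9.54 and 9.62 in the control. Every miR-1 value was above the control, with replicate 3 the highest. It rose by 0.69 ± 0.14 (adjusted p = 8.2e-04), and no other mimic moved it past the threshold. The glucose transporter gene Slc2a1 differed by 0.29 ± 0.10 under miR-1 (adjusted p = 0.0414), a call that ended without miR-1 replicate 1 or 3 or control replicate 2 or 3 (adjusted p up to 0.1904). Hk1, the hexokinase of most tissues, was at -0.17 ± 0.05 under miR-145 in the probe set used here (adjusted p = 0.0351), and its other probe set stood at 0.05. This call ended without 4 of the 6 libraries (adjusted p up to 0.2297). Under miR-1 these 2 probe sets of Hk1 disagreed in sign, at -0.08 and 0.28.

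Pfkfb3 makes the activator of phosphofructokinase. It had 7.47, 7.53 and 7.30 under miR-365, against 8.15, 8.03 and 8.03 in the control. All 3 miR-365 values lay lower, by 0.64 ± 0.10 on average (adjusted p = 3.9e-05). Its call under miR-145 (0.34) ended without 4 of the 6 libraries, and that under miR-34a (-0.30) ended whichever of the 6 was left out. The related Pfkfb4 was at 0.38 under miR-1, -0.43 under miR-22 and -0.45 under Let-7b, and each of these calls ended when single libraries were left out, with adjusted p between 0.0751 and 0.3361.

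Aldoc, an aldolase best known from brain, had 7.76, 8.0 and 7.93 under miR-22, against 7.22, 7.25 and 7.14 in the control. The miR-22 values were all above the control and also above those of every other mimic. It rose by 0.70 ± 0.10 (adjusted p = 3.6e-05), and by 0.38 ± 0.10 under miR-1 (adjusted p = 0.0067). The main muscle aldolase Aldoa ranged from -0.21 under miR-365 to 0.14 under miR-1, and its call under miR-365 ended without 4 of the 6 libraries. Pgam1, the form of phosphoglycerate mutase found in most tissues, did not follow its muscle partner. It fell by 0.54 ± 0.09 under Let-7b (adjusted p = 3.4e-04), with 12.71, 12.24 and 12.26 under Let-7b, against 12.95, 12.99 and 12.91 in the control. Under miR-1 it was at -0.27 ± 0.09 (adjusted p = 0.0363), a call that ended without 5 of the 6 libraries (adjusted p up to 0.2856 without miR-1 replicate 3).

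Eno3, the muscle enolase, fell under miR-34a, unlike Pgam2 and Pfkm. It had 12.46, 12.59 and 12.23, against 13.02, 13.02 and 12.97 in the control. All 3 miR-34a values lay below every other transfected sample. The fall was 0.57 ± 0.06 (adjusted p = 1.5e-06), and a rise of 0.22 ± 0.06 under miR-1 (adjusted p = 0.0140) was lost without control replicate 3 (adjusted p = 0.0579). The abundant enzymes at the end of the pathway moved by small amounts. Pyruvate kinase Pkm rose by 0.17 ± 0.04 under miR-1 (adjusted p = 0.0021). Lactate dehydrogenase A, from Ldha, was at 0.13 ± 0.03 under miR-1 (adjusted p = 0.0032) and at -0.14 ± 0.03 under miR-365 (adjusted p = 0.0031), calls that ended without a variance trend (adjusted p = 0.0626 and 0.0614). Pgk1, phosphoglycerate kinase, was at -0.19 under miR-365 and 0.17 under miR-34a, both calls ended when single libraries were left out, and its probes may read near-identical copies of the gene.

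Ldhb, the lactate dehydrogenase that favours pyruvate formation, rose under more mimics than any other glycolytic member. It had 9.40, 9.45 and 9.47 under miR-22 and 9.27, 9.28 and 9.64 under miR-365, against 8.65, 8.75 and 8.82 in the control. Both mimics lay wholly above the control. The rise was 0.70 ± 0.09 under miR-22 (adjusted p = 7.8e-06), 0.65 ± 0.09 under miR-365 (adjusted p = 9.1e-06), 0.43 ± 0.09 under miR-29a (adjusted p = 0.0021) and 0.38 ± 0.09 under miR-145 (adjusted p = 0.0083). The miR-145 call ended with only the mimic and the control in the model (adjusted p = 0.0639). Under miR-1 it was at 0.05 and did not pass.

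**Figure D3:**
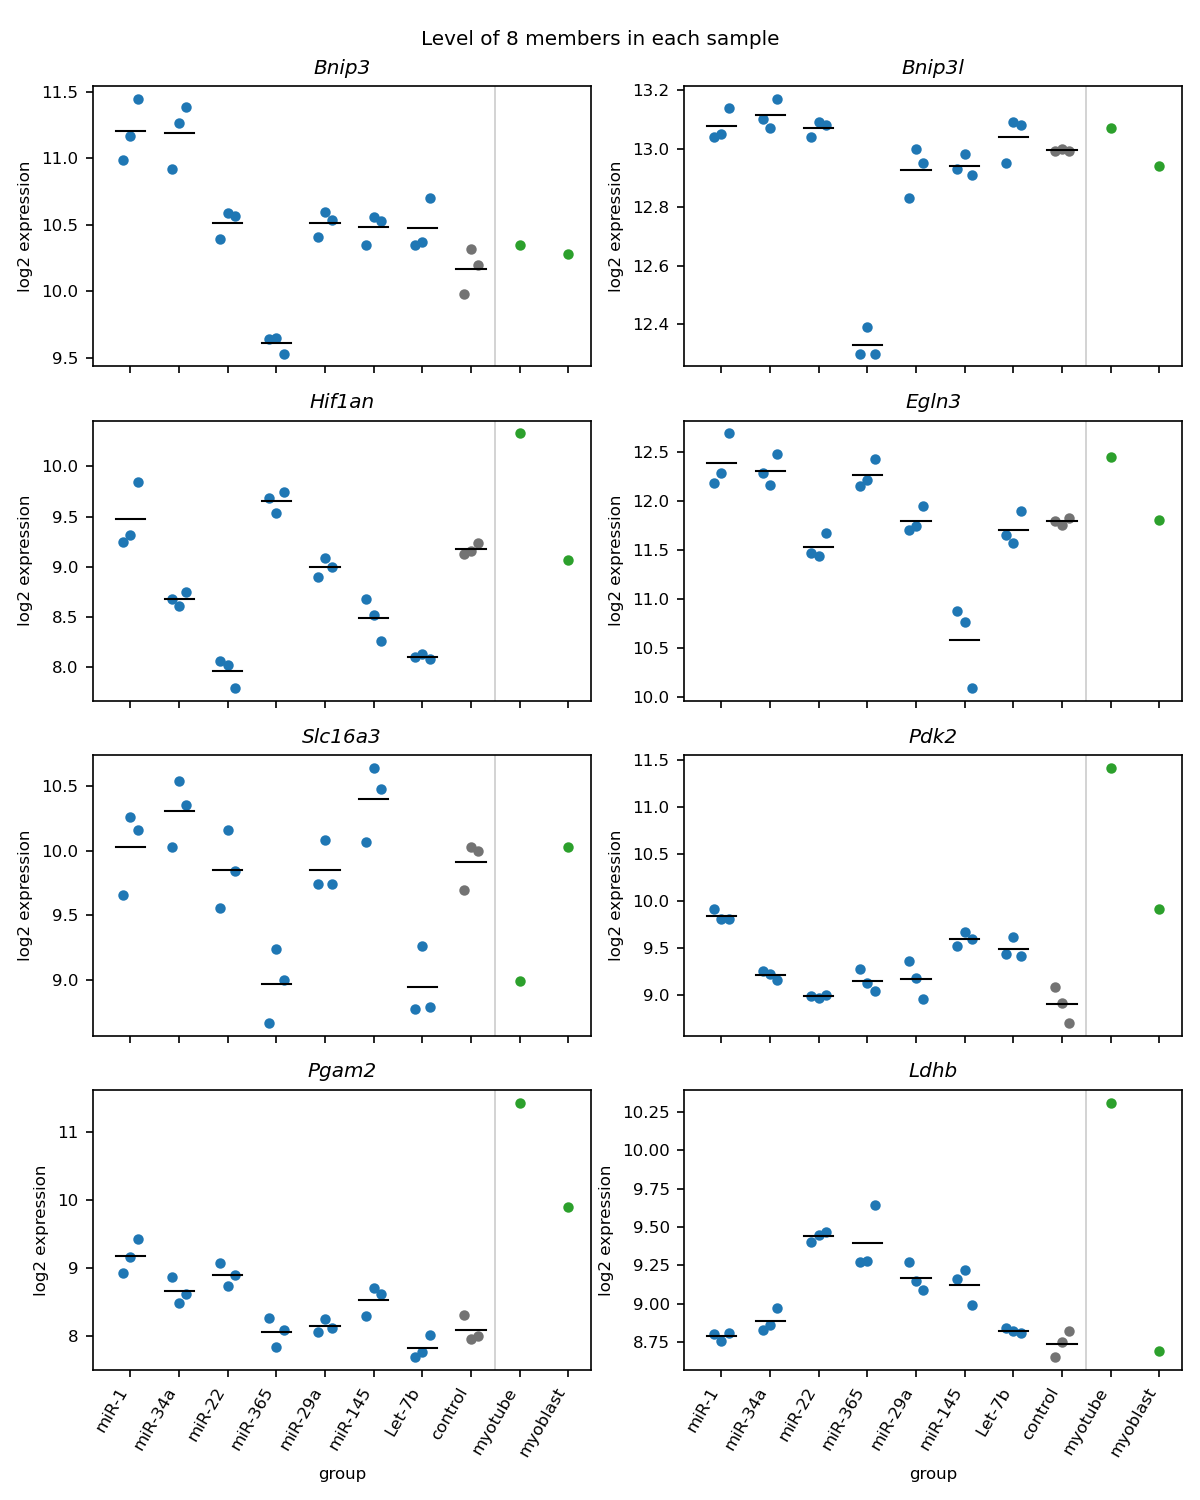
Log2 expression of 8 members in every sample, with 3 values for each mimic (blue) and for the control (grey), their mean as a black line, and the single myotube and myoblast arrays (green). Bnip3 is high under miR-1 and miR-34a and low under miR-365, Hif1an is lowest under miR-22 and Let-7b, and Egln3 is lowest under miR-145.

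Pyruvate dehydrogenase kinases keep pyruvate out of mitochondria by shutting off pyruvate dehydrogenase, and 4 such genes were in the set. Pdk2 had 9.91, 9.81 and 9.81 under miR-1, 9.52, 9.67 and 9.59 under miR-145 and 9.43, 9.62 and 9.41 under Let-7b. The control had 9.08, 8.91 and 8.70, and none of the 9 mimic values reached down to it. Pdk2 rose by 0.95 ± 0.10 under miR-1 (adjusted p = 2.2e-07), 0.70 ± 0.10 under miR-145 (adjusted p = 8.2e-05) and 0.59 ± 0.10 under Let-7b (adjusted p = 2.5e-04). The control values of Pdk2 were also lower than the untransfected myoblast at 9.91.

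Pdk1, a known HIF target, had 9.23, 9.39 and 9.57 under miR-34a, against 8.34, 8.53 and 8.47 in the control. The groups stood apart, by 0.95 ± 0.18 (adjusted p = 6.9e-04). Under miR-1 the difference was 0.57 ± 0.18 (adjusted p = 0.0193), and this call ended without miR-1 replicate 2, miR-1 replicate 3 or control replicate 1 (adjusted p = 0.0525, 0.1431 and 0.0723). Pdk4, which fasting raises in muscle, had 11.75, 11.78 and 11.88 under miR-1, against 11.23, 10.82 and 10.94 in the control. The miR-1 values were the highest of all mimics, a rise of 0.81 ± 0.16 (adjusted p = 4.4e-04). Pdk4 was lower by -0.49 ± 0.16 under miR-22 and by -0.48 ± 0.16 under miR-365, and each of these calls ended without 4 of the 6 libraries, with adjusted p up to 0.1984. Pdk3 was at 0.25 ± 0.06 under miR-22 (adjusted p = 0.0059), and at 0.20 with arrays centred on their median (adjusted p = 0.0509).

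The lactate transporters fell where they passed. Slc16a3, which exports lactate from glycolytic cells and is induced by low oxygen, had 8.67, 9.24 and 9.00 under miR-365 and 8.78, 9.26 and 8.79 under Let-7b, against 9.70, 10.03 and 10.00 in the control. No value of either mimic reached the control. It fell by 0.94 ± 0.19 under miR-365 (adjusted p = 9.6e-04) and by 0.96 ± 0.19 under Let-7b (adjusted p = 0.0015). Slc16a1, which carries lactate and pyruvate in both directions, had 10.49, 10.88 and 10.78 under miR-365 and 10.79, 10.58 and 10.84 under miR-29a, against 11.20, 11.40 and 11.48 in the control. Again both mimics lay below all control values. It fell by 0.64 ± 0.10 (adjusted p = 7.0e-05), 0.62 ± 0.10 (adjusted p = 2.2e-04) and, under miR-34a, 0.44 ± 0.10 (adjusted p = 0.0050).

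The oxygen sensing genes moved apart from one another. Hif1a itself passed under no mimic in the model without a replicate block. Its differences ran from -0.20 under miR-29a to -0.02 under miR-34a, with a lowest adjusted p of 0.1810. Under miR-29a each value lay below the control value of its number, at 11.95, 12.22 and 12.12, against 12.17, 12.36 and 12.37. The same held under miR-1, miR-22, miR-365, miR-145 and Let-7b, against the same control values, and not under miR-34a. What the block gives for Hif1a is not reported here. Its protein is set mainly by breakdown, which these arrays do not measure. Hif1an had 8.06, 8.02 and 7.79 under miR-22 and 8.10, 8.13 and 8.08 under Let-7b, against 9.13, 9.16 and 9.24 in the control. Both mimics were lower than every control value by a wide margin. Hif1an fell by 1.22 ± 0.12 under miR-22 (2.32-fold, adjusted p = 3.3e-07) and by 1.07 ± 0.12 under Let-7b (2.10-fold, adjusted p = 2.6e-06).

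Under miR-145 Hif1an had 8.68, 8.52 and 8.26, again all below the control, and fell by 0.69 ± 0.12 (adjusted p = 8.6e-04). Under miR-34a it fell by 0.50 ± 0.12 (adjusted p = 0.0082). Under miR-365 it had 9.69, 9.54 and 9.75, all above the control, and rose by 0.48 ± 0.12 (adjusted p = 0.0054). Over the 7 mimics, 2 members fell under 3 or more, Hif1an and Slc16a1, against 4.58% of all genes. Higher under 3 or more were 7 members (Pfkm, Aldoc, Pgam2, Ldhb, Pdk2, Egln3 and Adm), against 6.89%. Without control replicate 1 these came to 4 (against 6.18%), and without control replicate 3 also to 4 (against 3.79%), in both cases Pfkm, Pgam2, Ldhb and Pdk2.

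Egln3, a prolyl hydroxylase that HIF itself induces, had 10.88, 10.77 and 10.09 under miR-145, against 11.80, 11.76 and 11.83 in the control. All 3 values were low and replicate 3 was the lowest, while every sample of the other 6 mimics stayed at 11.44 or above. The fall was 1.21 ± 0.15 (2.32-fold, adjusted p = 2.4e-05), and against the other 6 mimics 1.42 ± 0.12 (adjusted p = 2.7e-08). Under miR-1 Egln3 had 12.18, 12.29 and 12.69, all above the control. That difference was 0.59 ± 0.15 (adjusted p = 0.0057), and without miR-1 replicate 3 it was 0.44 (adjusted p = 0.0631). The differences of 0.52 under miR-34a and 0.46 under miR-365 passed as well, and each call ended without 5 of the 6 libraries (adjusted p up to 0.1652). Egln1, the main prolyl hydroxylase of most cells, fell by 0.34 ± 0.05 under Let-7b (adjusted p = 1.3e-04) and by 0.22 ± 0.05 under miR-365 (adjusted p = 0.0048).

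Bnip3 and Bnip3l encode receptors that send mitochondria to autophagy in hypoxic cells. Bnip3 had 10.99, 11.17 and 11.45 under miR-1 and 10.92, 11.27 and 11.39 under miR-34a, against 9.98, 10.32 and 10.20 in the control. Both mimics were above every control value. It rose by 1.04 ± 0.12 (2.05-fold, adjusted p = 1.3e-06) and 1.03 ± 0.12 (2.04-fold, adjusted p = 4.4e-06). Under miR-365 it had 9.64, 9.65 and 9.53, below the control and below all other mimics, and fell by 0.56 ± 0.12 (adjusted p = 0.0020).

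Bnip3l passed under miR-365 and under none of the other 6 mimics. It had 12.30, 12.39 and 12.30 under miR-365, against 12.99, 13.00 and 12.99 in the control. The miR-365 values stood clear of every other transfected sample, which lay between 12.83 and 13.17. The fall of 0.66 ± 0.05 (1.58-fold) had the smallest adjusted p of any member in these comparisons (1.4e-09). Against the mean of the other 6 mimics it was 0.70 ± 0.04 (adjusted p = 2.6e-12). The calls of Bnip3 and Bnip3l given here kept their side of the threshold under every alternative tried.

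Ndrg1, which stress and low oxygen raise, moved in opposite directions. It had 12.20, 11.81 and 12.27 under Let-7b and 10.94, 10.48 and 10.55 under miR-365, against 11.42, 11.23 and 11.25 in the control. Let-7b values were all above the control and miR-365 values all below it. The difference was 0.79 ± 0.14 under Let-7b (adjusted p = 4.3e-04) and -0.64 ± 0.14 under miR-365 (adjusted p = 0.0015). Under miR-145 it was 0.49 (adjusted p = 0.0347), a call that ended without 4 of the 6 libraries (adjusted p up to 0.1409).

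Vegfa, the growth factor of blood vessels, passed under miR-365 alone, with 10.99, 10.85 and 10.66, against 11.35, 11.22 and 11.21 in the control. The 2 groups did not overlap, and the fall was 0.43 ± 0.07 (adjusted p = 2.1e-04). Adm, the vasodilator peptide adrenomedullin, is the only member among the 40% of genes with the lowest mean. It had 7.30, 7.49 and 7.52 under miR-1 and 7.02, 7.70 and 7.42 under miR-34a, against 6.73, 6.93 and 6.62 in the control. Both mimics lay above the control, by 0.68 ± 0.16 (adjusted p = 0.0020) and 0.62 ± 0.16 (adjusted p = 0.0092). The miR-34a call ended without miR-34a replicate 2 or control replicate 3 (adjusted p = 0.0735 and 0.0576). At 0.55 under miR-145 the call ended without 4 of the 6 libraries.

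Ankrd37, a small HIF target of unsettled function, rose under miR-145 by 0.55 ± 0.08 (adjusted p = 7.9e-05). P4ha2, a collagen prolyl hydroxylase, rose there by 0.44 ± 0.09 (adjusted p = 0.0037), a call that ended with only the mimic and the control in the model (adjusted p = 0.0542). The related P4ha1 was at 0.37 ± 0.12 under both miR-1 and miR-34a, and both calls ended when single libraries were left out (adjusted p up to 0.1273). The histone demethylase gene Kdm3a rose by 0.48 ± 0.10 under miR-34a (adjusted p = 0.0020), and its calls of 0.32 under miR-1 and -0.30 under miR-22 ended without 4 of the 6 libraries each (adjusted p up to 0.2797).

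Other genes of the same pathways were counted as well, 25 of glucose and pyruvate metabolism and 38 of the hypoxia response. Under miR-1, 11 of the 25 and 16 of the 38 rose, against 13.2% of all genes, with 2 and 1 lower, against 10.5%. The neuronal enolase Eno2 rose by 1.04 ± 0.15 (adjusted p = 1.7e-05) and Txnip, which restrains glucose uptake, by 0.87 ± 0.18 (adjusted p = 9.8e-04). Under miR-34a, 2 of 25 (8%) and 6 of 38 (15.8%) rose, against 5.62% of all genes, with 1 (4%) and 2 (5.26%) lower, against 6.06%. The transferrin receptor gene Tfrc fell by 1.19 ± 0.10 (adjusted p = 2.5e-08), while the mitochondrial adenylate kinase gene Ak4 rose by 0.86 ± 0.19 (adjusted p = 0.0033). Txnip was at -0.71 ± 0.18 under miR-34a (adjusted p = 0.0115), a call that ended without miR-34a replicate 3 (adjusted p = 0.0866) or control replicate 3 (adjusted p = 0.0607). Under miR-22, 4 of 25 (16%) and 6 of 38 (15.8%) rose, against 8.82% of all genes, with 3 (12%) and 2 (5.26%) lower, against 5.67%. Arnt, the partner subunit of HIF, fell by 0.54 ± 0.07 (adjusted p = 1.3e-05), and the glycoprotein hormone gene Stc2 rose by 0.97 ± 0.11 (adjusted p = 1.0e-06).

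Under miR-365, 2 of 25 (8%) and 3 of 38 (7.89%) rose, against 11.7% of all genes, with 2 (8%) and 6 (15.8%) lower, against 8.33%. Pgm2, a phosphoglucomutase that links glycogen to glycolysis, had 9.70, 9.76 and 9.61, against 10.93, 10.92 and 10.99 in the control. It was lower than in any other transfected sample, by 1.25 ± 0.06 (2.38-fold, adjusted p = 5.6e-13). Ak4 fell by 1.01 ± 0.19 (adjusted p = 3.9e-04). Txnip rose by 0.94 ± 0.18 (adjusted p = 6.3e-04), as it did under miR-1, and the stress gene Ddit4, an inhibitor of mTORC1, rose by 0.87 ± 0.11 (adjusted p = 2.7e-06).

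Under miR-29a, 0 of 25 and 2 of 38 (5.26%) rose, against 5.54% of all genes, with 4 (16%) and 9 (23.7%) lower, against 4.78%. Of the 25, 11 had an unadjusted p below 0.05 in limma in either direction, where 3976 of all 19938 genes did. Ak4 fell by 1.18 ± 0.19 (adjusted p = 1.6e-04) and Errfi1, a feedback inhibitor of the EGF receptor, by 0.75 ± 0.11 (adjusted p = 6.9e-05). Under miR-145, 2 of 25 (8%) and 2 of 38 (5.26%) rose, against 3.85% of all genes, with 1 (4%) and 3 (7.89%) lower, against 3%. There Pdp1, the phosphatase that reopens pyruvate dehydrogenase, rose by 0.63 ± 0.11 (adjusted p = 9.4e-04). Under Let-7b, 3 of 25 (12%) and 4 of 38 (10.5%) rose and 0 and 4 (10.5%) were lower, each against 5.46% of all genes. An unadjusted p below 0.05 in limma was found for 5 of the 25, and for 4070 of all 19938 genes. Gys1, the muscle glycogen synthase, had 10.06, 9.87 and 9.82 under Let-7b, against 10.79, 10.80 and 10.79 in the control. It fell by 0.87 ± 0.06 (adjusted p = 6.9e-09), and every other mimic had Gys1 values of 10.77 or above.

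The myotube and myoblast arrays were compared without a test, since each group is 1 array. A difference of at least 1 on the log2 scale was counted, a mark that 4.71% of all genes passed. Of the 37 members 9 passed it, 6 higher in the myotube (against 2.71% of all genes) and 3 lower (against 2.01%). The median difference over the members was 0.00. The proliferation markers were lower in the myotube for 5 of 5 and the myotube markers higher for 7 of 7, 3 of them by at least 1.

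Isoforms of phosphofructokinase differed past the mark in opposite directions between the arrays. The phosphoglycerate mutases also differed in sign, with Pgam1 at -0.55, short of the mark. Ldhb had 10.31 in the myotube and 8.69 in the myoblast, a difference of 1.62, and Pgam2 had 11.44 in the myotube and 9.90 in the myoblast, a difference of 1.54. Pfkm had 12.23 in the myotube and 11.22 in the myoblast, a difference of 1.02. The liver isoform Pfkl was lower, at 9.44 in the myotube and 10.51 in the myoblast. Just outside the mark were Slc2a1 at -0.99 and Pfkp at -0.95. Ldha, at 13.53 in the myotube and 13.55 in the myoblast, and Pkm, at 12.81 in both, hardly differed between these arrays.

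Of the genes of pyruvate and lactate, Pdk2 had 11.42 in the myotube and 9.91 in the myoblast, and Pdk4 had 12.26 in the myotube and 10.79 in the myoblast. Slc16a3 had 8.99 in the myotube and 10.03 in the myoblast. Hif1an stood at 10.33 in the myotube and 9.07 in the myoblast, a difference of 1.27, above every transfected sample. Vegfa had 10.36 in the myotube and 11.41 in the myoblast, whereas Bnip3 differed by 0.08 and Bnip3l by 0.13. Of the other pathway genes, 2 of 25 and 2 of 38 were higher past the mark and 0 lower, among them Gpd1, glycerol phosphate dehydrogenase, at 1.40, and Angptl4, a lipase inhibitor, at 1.16.

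**Figure D4:**
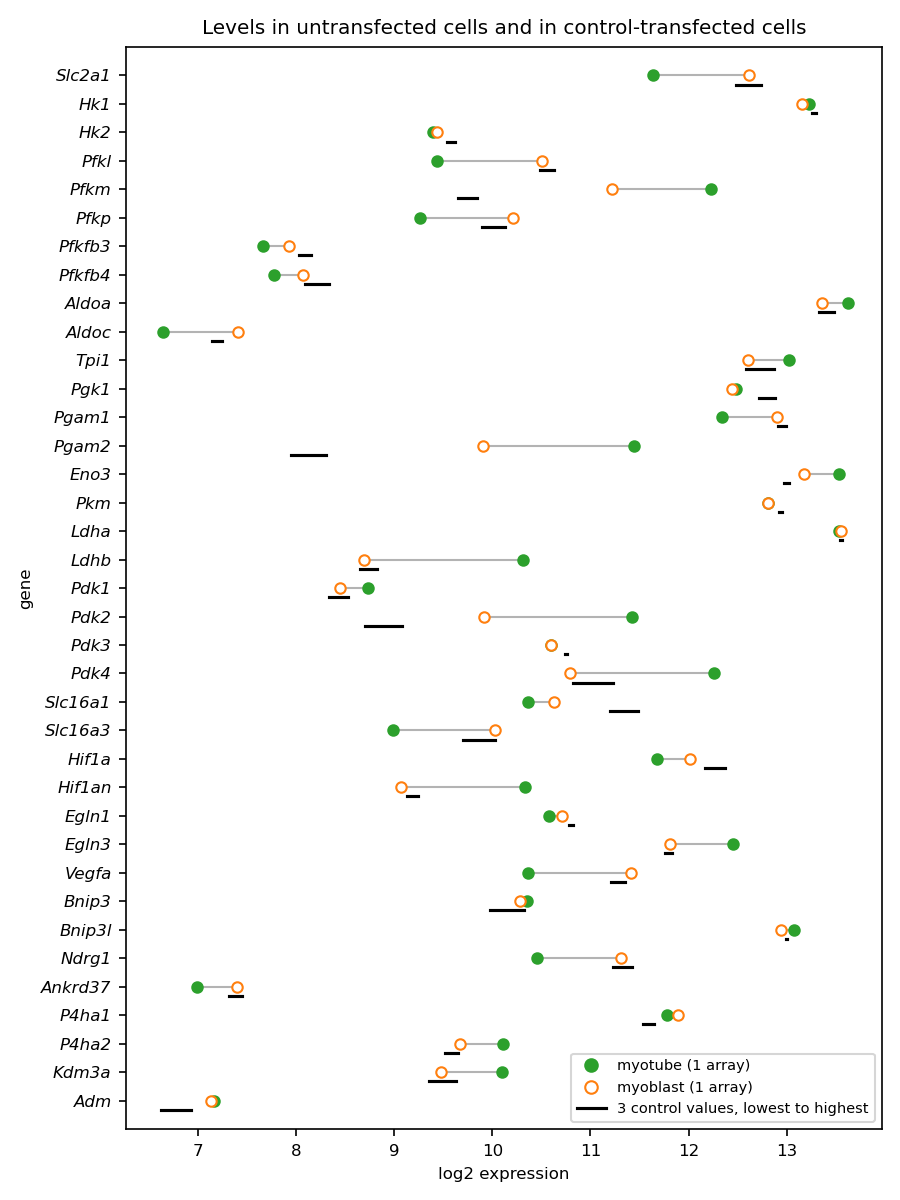
Log2 expression of the 37 members in the myotube array (filled green) and the myoblast array (open orange), joined by a grey line, with the range of the 3 control values as a black bar under each line. Ldhb, Pgam2, Pdk2, Pdk4, Hif1an and Pfkm are at least 1 higher in the myotube, and the control bars of Pgam2, Pfkm and Pdk2 lie well left of both arrays.

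The control-transfected cells were also set beside the untransfected myoblast, which lay outside the 3 control values for 25 of the 37 members, against 67.7% of all genes. All 3 control values lay above it for 14 members (against 33.7% of all genes) and below it for 11 (against 34%). These counts are near those of all genes. Among the members the gaps were widest for Pgam2, Pfkm and Pdk2, with a control mean minus myoblast of -1.81, -1.49 and -1.01. The muscle enolase Eno3 was at -0.18. Slc16a1 went the other way, at 0.73. The rises of Pgam2 and Pfkm under the mimics given above were measured against this low control, and no mimic mean of either gene reached the myoblast array. With 1 array, the gap cannot be told apart from the spread between untransfected cultures.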

How the data were processed

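RNA of C2C12 cells was measured on 29 Affymetrix Mouse Gene 1.0 ST arrays, 27 of them of transfected cells. The deposited values are log2 expression, made by the authors with RMA (background correction, quantile normalization and probe summary) in Affymetrix Expression Console 1.1, per the submitters' processing notes. Of 35556 probe sets, 21789 had 1 gene symbol, 1621 several and 12146 none, and the first kind gave 19938 genes. Array medians were 7.24 to 7.39. The members and lists were chosen with earlier results of these data known. Limma 3.58.1 in R 4.3.3 fitted 24 values in 8 groups with a variance trend, each control array averaged with its technical repeat (r = 0.9958 to 0.9963). Tests were 2-sided with Benjamini-Hochberg adjustment over all genes, and the fit was checked on simulated data. Members were given by sample where they passed with a change of at least 1.5-fold, and other pathway genes were named by size. Same-numbered mimic and control values deviated together in all 3 pairs (r over 0.1) for 4 mimics (miR-29a, miR-34a, miR-365 and miR-22), and not in all for miR-1, miR-145 and Let-7b. Alternatives were other normalizations, filters, models and single libraries left out. Sequences came from RefSeq on GRCm38.p6.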

Additional observations from a re-analysis of the deposited data

How the results depend on the processing

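Of the 79 calls of a member against the control, 44 held under every alternative and 0 reversed, and of the 30 past 1.5-fold 28 held. With the replicate number as a block, 0 of the 79 calls were lost. The members called came to 16 (model of all groups 10) for miR-22, 8 (2) for miR-29a, 19 (10) for miR-145 and 16 (8) for Let-7b under the replicate block, and that block moved no count of the other 3 mimics by over 1.5 times. For miR-145 and Let-7b 2 of the 3 pairs with the control correlated over 0.1. Over all groups 24 of 24 values correlated best with their own number (mean r 0.24, against -0.12 for other numbers). The labels do not say whether equal numbers come from the same experiment, so the pairing is a hint from the data. A member that did not pass without the block may pass with it. For miR-29a the count was 4 without technical repeats, 4 with the technical pairs as a random block and 4 with only the mimic and the control in the model, and for miR-145 it was 5 in that last model. With 1 library left out the counts ranged from 11 to 18 for miR-1, 8 to 11 for miR-34a, 6 to 10 for miR-22, 11 to 15 for miR-365, 2 to 3 for miR-29a, 6 to 11 for miR-145 and 7 to 8 for Let-7b. The members higher under 3 or more mimics ranged from 4 to 8 and those lower from 2 to 3 with any 1 library left out, an alternative chosen after seeing the data. Of the myotube and myoblast arrays, 15 members differed at a threshold of 1.5-fold, against 9 at a log2 difference of 1. The share of all genes at 1.5-fold is not reported here, so the count of 15 cannot be set against it. Over all genes, the replicate block called 1742 higher and 1400 lower for miR-29a (1104 and 954 without it), 1409 and 1035 for miR-145 (767 and 598) and 1641 and 1657 for Let-7b (1088 and 1089). With only the mimic and the control in the model, 654 genes passed for miR-145 (1365 in the model of all groups). With 1 library left out, all genes called ranged from 1482 to 2012 for miR-34a (2330), 1681 to 2670 for miR-22 (2888), 1330 to 2084 for miR-29a (2058), 727 to 1410 for miR-145 and 1379 to 1932 for Let-7b (2177). Centring arrays on their median gave 850 higher and 1389 lower for miR-34a (1121 and 1209), 1197 and 1521 for miR-22 (1758 and 1130), 803 and 1073 for miR-29a and 455 and 812 for miR-145. Further quantile normalization left miR-1 with 16 members higher and 3 lower, where 2517 and 2283 of all genes were. The cause of these shifts was not tested. Dim genes such as Adm lie near the level of probe sets without a listed gene, where the arrays resolve changes least. Aldoc and Ankrd37, with means of 7.4 and 7.48 over the 27 transfected arrays, also lie below the median gene mean of 7.84.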
